A study of Bos taurus with 15 samples.

Results

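The genes described here are the spliceosomal small nuclear RNA (snRNA) genes that were measurable in RNA of bovine blastocysts cultured with or without extracellular vesicles of the oviduct (oEVs). Of the 34773 genes in the unfiltered count table, 971 have the NCBI gene type snRNA, and 330 of these had at least 1 count. The 40 genes with at least 50 counts summed over the 15 libraries were selected on this summed count alone, and they hold 50800 of the 53029 counts on snRNA genes. The sum is of raw counts, and libraries of embryos with frozen oEVs were deeper than control libraries. Genes with a high level in embryos with frozen oEVs thus reached the minimum more easily. Just inside this minimum lay LOC112449419 with 50 counts and LOC112446132 with 51, and just outside it LOC112442453 with 47 and LOC112442855 with 46. A class name was at hand for 10 of the 40 genes: 3 U1 genes, 4 U2 genes, 2 U4 genes and 1 U5 gene. The other 30 genes carry no class name, and no gene was named U6, U11 or U12, so these 30 are described by their annotated length.

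snRNAs are short RNAs that form, with their proteins, the particles of the spliceosome, the machine that removes introns from pre-mRNA. U1 pairs with the 5′ splice site and U2 with the branch point. U4 holds U6 in an inactive pairing until the spliceosome is activated, and U5 contacts the exons that are joined. Most snRNAs are made by RNA polymerase II and have no poly(A) tail, whereas U6 is made by RNA polymerase III. Each class is encoded by several near-identical gene copies, and mammalian genomes also carry many copies of U6 that are thought to be inactive.

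In vitro produced embryos were cultured without oEVs (Co), with fresh oEVs (FeEV) or with frozen oEVs (FoEV), and the labels give blastocysts of day 7. Each library was made from 1 ng total RNA of a pool of 8 to 14 embryos, with a kit that primes total RNA and depletes ribosomal RNA, and each treatment had 5 libraries. The pools with the best RNA were chosen for sequencing. Whether the pools of a treatment came from separate culture runs is not given in the sources used here, so the p-values measure the spread between pools. The paper states that fresh and frozen oEVs shared their oviducts of origin and differed only in a freeze-thaw step. Which FeEV and FoEV libraries share a source of oEVs is not given in the sources used here. All cells of the blastocyst are mixed in a pool, and fewer cells of a type cannot be told apart from less RNA per cell.

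The libraries held 2571558 to 2977004 counts in Co, 2136713 to 3808602 in FeEV and 3392613 to 4058887 in FoEV, so that every FoEV library was deeper than every Co library. A count of 3, taken as the limit of detection, corresponded to 0.739 to 1.40 CPM (counts scaled to an equal library total over all genes) depending on the library, which covers counting error only. Blastocyst markers were present in all treatments: the 7 trophectoderm markers, mostly KRT8 and KRT18, summed to 6155 to 8039 CPM in Co, 6513 to 10012 CPM in FeEV and 7855 to 11908 CPM in FoEV, and the 3 inner cell mass markers to 243 to 302, 237 to 297 and 211 to 298 CPM. The inner cell mass sums hide different directions of single markers. In the same order NANOG averaged 78.2, 52.3 and 44.2 CPM, POU5F1 165, 186 and 191 CPM, and SOX2 31.9, 26.0 and 31.0 CPM. The 4 markers of oviduct epithelium summed to 8.56 to 13.1 CPM in Co, 4.88 to 11.4 CPM in FeEV and 6.21 to 11.8 CPM in FoEV. Most of this was PAX8, at a mean of 8.31 CPM over all libraries, beside 0.670 CPM for OVGP1.

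The U4 genes held the largest part of the signal. The 2 U4 genes carried 26753 counts, 50.4% of all counts on snRNA genes, the 3 U1 genes 19.5%, the 4 U2 genes 12.7% and the U5 gene 1.57%. Per kilobase of annotated length, the mean summed level over the 15 libraries was 3786 CPM for U4, 1281 CPM for U1, 708 CPM for U2 and 144 CPM for the 1 named U5 gene. The 11 genes of 116 to 118 bases, which include that gene, held 6.89% of the snRNA counts and 642 CPM per kilobase. The level found for U5 thus depends on which genes had a name, but it lay below that of U2 in both cases. By length, the 410 genes of 107 bases, of which 174 had a count and 10 passed the minimum of 50, together held only 4.24% of the snRNA counts.

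In FoEV embryos a larger share of the counts fell on snRNA genes than in most Co and FeEV embryos. The share was 0.129%, 0.0684%, 0.0529%, 0.0730% and 0.0773% in Co replicates 1 to 5, which is 0.0801% ± 0.0288 (SD, n = 5). In FeEV it was 0.0667%, 0.103%, 0.0870%, 0.0667% and 0.0931%, or 0.0834% ± 0.0163 (SD, n = 5). In FoEV it was 0.140%, 0.0968%, 0.145%, 0.222% and 0.181%, or 0.157% ± 0.047 (SD, n = 5). Of the 5 FoEV libraries, 4 lay above all 10 other libraries, and FoEV replicate 2 lay below Co replicate 1 and FeEV replicate 2. The log2 share averaged 0.98 higher in FoEV than in Co, and between 0.84 and 1.17 higher when 1 library was left out. Since the share is a sum over the genes chosen, it is given without a test.

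U4, which chaperones U6, had the largest fitted difference of the 4 named classes between FoEV and Co. The 2 U4 genes summed to 580, 244, 221, 341 and 338 CPM in Co, to 259, 463, 478, 337 and 445 CPM in FeEV and to 725, 464, 777, 1323 and 1009 CPM in FoEV. The FoEV range began at 464 CPM, above 4 of the 5 Co libraries and 4 of the 5 FeEV libraries. On the log2 scale U4 was 1.31 ± 0.37 (SE) higher in FoEV than in Co, a fold of 2.48, with an unadjusted p of 0.004 and an edgeR adjusted p = 0.181, so it did not pass the threshold of 0.05 over all genes. Against FeEV the difference was 1.15 ± 0.37 (SE, edgeR adjusted p = 0.504), and FeEV differed from Co by 0.16 ± 0.37 (SE).

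U1, the RNA that recognises the 5′ splice site, summed over its 3 genes to 343, 166, 101, 115 and 164 CPM in Co, to 150, 191, 143, 154 and 134 CPM in FeEV and to 286, 172, 275, 437 and 319 CPM in FoEV. Co replicate 1 lay among the FoEV libraries, while the other 4 Co libraries lay below all 5 of them. The log2 difference between FoEV and Co was 0.73 ± 0.36 (SE, edgeR adjusted p = 0.402), and without Co replicate 1 it was 1.14 (edgeR adjusted p = 0.124). That was the highest value with each library left out in turn, and the lowest was 0.49. FoEV was 0.99 ± 0.36 (SE) higher than FeEV on the log2 scale, with an edgeR adjusted p = 0.515. FeEV was lower than Co by -0.25 ± 0.36 (SE) with all libraries and higher by 0.16 without Co replicate 1.

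U2, which pairs with the branch point, summed over its 4 genes to 143, 116, 93.0, 101 and 85.6 CPM in Co, to 121, 160, 93.0, 60.4 and 192 CPM in FeEV and to 157, 148, 166, 155 and 237 CPM in FoEV. Every FoEV library lay above every Co library, by 148 against 143 CPM at the closest, while the FeEV range overlapped both. FoEV was 0.67 ± 0.29 (SE) higher than Co on the log2 scale, with an unadjusted p of 0.0405 and an edgeR adjusted p = 0.35. The U5 gene LOC112446152 had 26.9, 7.30, 5.71, 12.1 and 18.7 CPM in Co, 5.53, 21.3, 13.0, 8.89 and 8.66 CPM in FeEV and 21.2, 21.2, 27.3, 30.9 and 24.6 CPM in FoEV. Its log2 difference was 0.78 ± 0.42 (SE, edgeR adjusted p = 0.446) between FoEV and Co. With each library left out in turn it ran from 0.56 to 1.18, the highest being without Co replicate 1. Between FoEV and FeEV it was 1.14 ± 0.43 (SE, edgeR adjusted p = 0.54). No class passed the adjusted threshold in any of the 3 comparisons with the quasi-likelihood test fitted without a block. With the number in the sample description as a block, U1 alone passed, at 1.07 higher in FoEV than in Co (edgeR adjusted p = 0.0254). Co replicate 1 shares its number with no other library, so this fit took no treatment difference from it. Without that library and without a block, U1 was 1.14 higher (edgeR adjusted p = 0.124). Whether the description numbers pair the libraries could not be settled. At an unadjusted p under 0.05, U4 and U2 were higher in FoEV than in Co (6.76% of all rows of that fit were), and U4, U1 and U5 were higher in FoEV than in FeEV (4.52%).

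**Figure D1:**
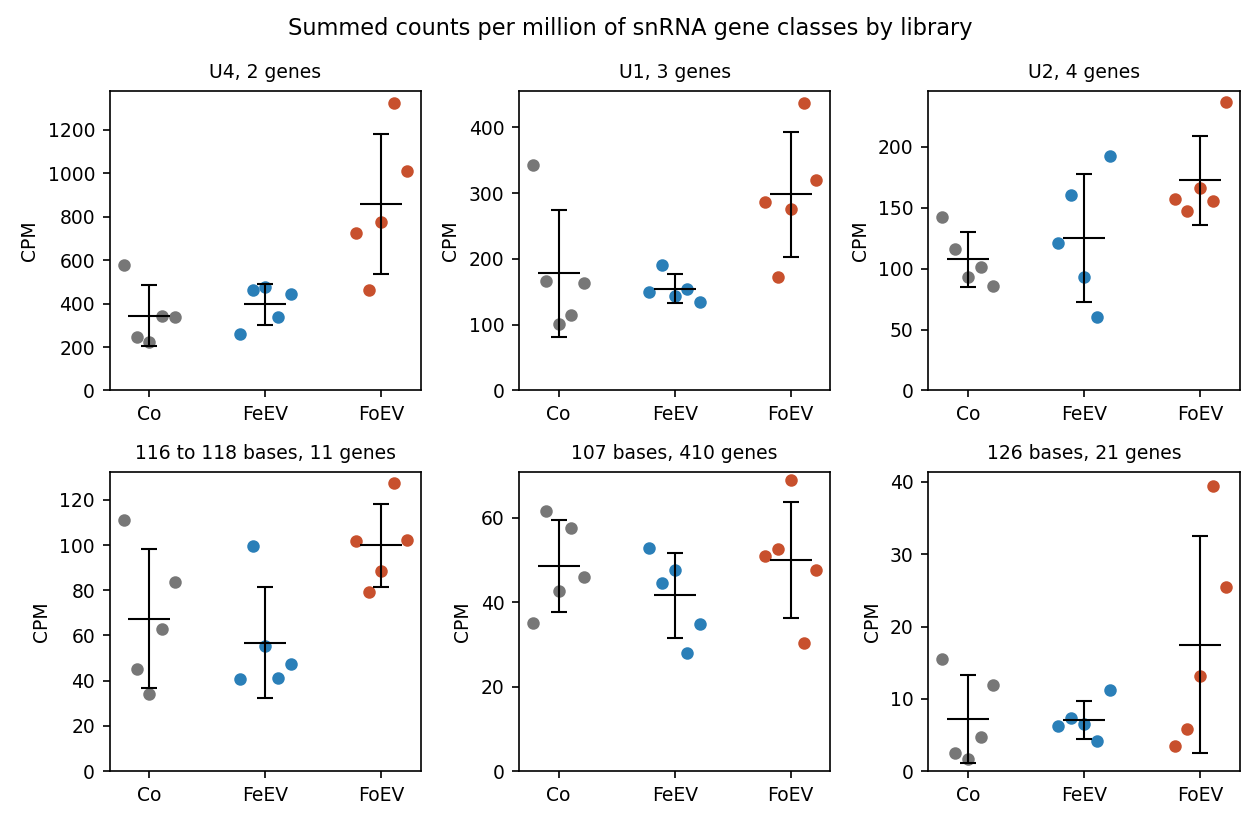
Summed CPM (y axis, linear, from 0) of 3 classes given by name and 3 given by annotated length, for the 5 libraries of Co, FeEV and FoEV; points are libraries in the order of their replicate numbers, and black bars the mean and SD. U4 reached 464 to 1323 CPM in FoEV against 221 to 580 CPM in Co, whereas the 107-base genes covered 30.4 to 68.8 CPM in FoEV and 35.2 to 61.7 CPM in Co.

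Gene by gene, 35 of the 40 snRNA genes had a higher fitted level in FoEV than in Co and 5 a lower one, and the median log2 difference was 0.58, beside 0.02 over all 13963 genes tested, of which 52.2% were higher. None passed the adjusted threshold of 0.05 with edgeR's quasi-likelihood test (0.00716% of all genes did), and the lowest adjusted p among them was 0.157. At an unadjusted p under 0.05, 7 of the 40 (17.5%) were higher, against 6.77% of all genes, and 2 were lower, against 6.64%. Among the 7 was LOC112446132, just inside the count minimum, with 10, 3, 1, 15 and 4 counts in FoEV and 1, 2, 0, 2 and 1 in Co. Such a gene passed the minimum largely through its FoEV counts. The Wald test of DESeq2 called 3 of the 40 (1.05% of all genes), namely both U4 genes and the U2 gene LOC112442854, all of them higher. The likelihood ratio test with robust dispersion called 7 (2.33% of all genes), all of them higher. This is the kind of test that the study used on its filtered table, and the paper reports small nuclear RNAs among the genes upregulated in FoEV against Co. The quasi-likelihood test with the replicate number as a block called 1 of the 40 (0.53% of all genes), and with the number in the sample description 2 (0.0931%). With all libraries, 9 of the 40 had an unadjusted p under 0.05 in either direction, against 13.4% of all genes. Without Co replicate 1 the number was 15, the highest over the libraries left out in turn, and the lowest was 6. Each of these refits still had 0 at the adjusted threshold. Their shares over all genes are not given here, so these counts stand without a background. Copies of a class share sequence and may share reads, so the 40 genes are not independent of each other.

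**Figure D2:**
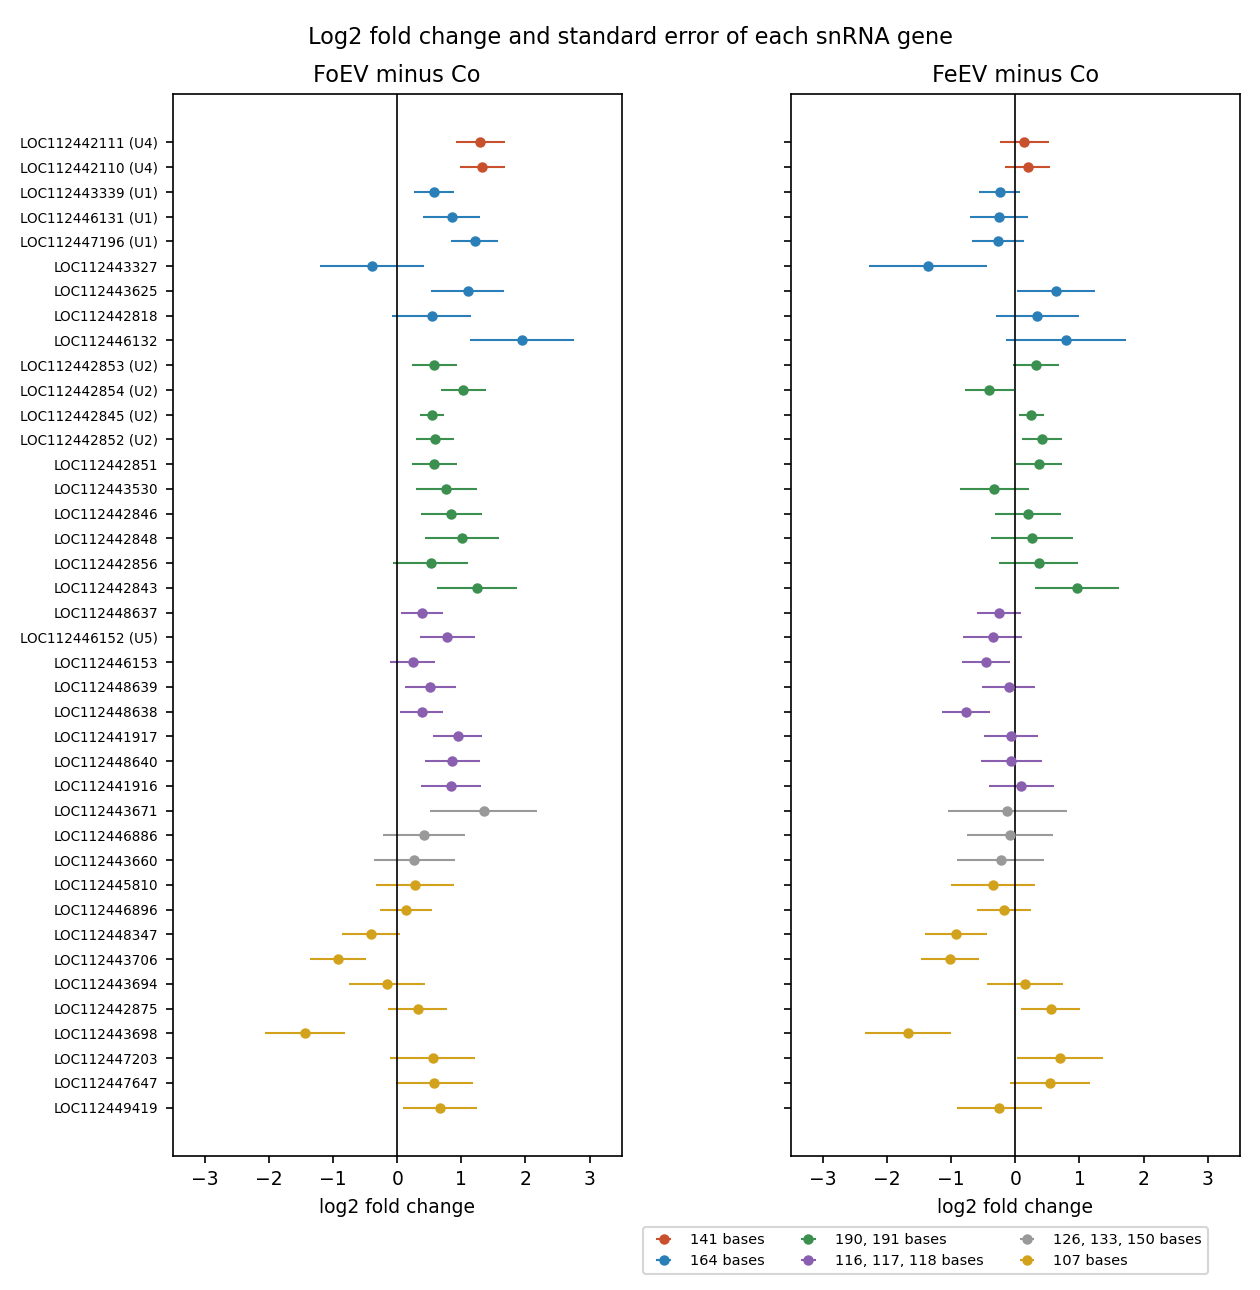
Log2 fold change (x axis) with its standard error for each of the 40 genes (y axis, ordered by annotated length and then by counts, with the class where it was named), for FoEV minus Co on the left and FeEV minus Co on the right. On the left 35 points lie above 0 and the points below 0 are mostly genes of 107 bases. On the right 18 lie above 0.

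The 2 U4 genes, LOC112442110 and LOC112442111, moved together over the libraries. LOC112442110 had 228, 96.8, 91.7, 138 and 137 CPM in Co, 112, 184, 194, 137 and 185 CPM in FeEV and 302, 193, 322, 506 and 425 CPM in FoEV, a log2 difference of 1.33 ± 0.35 (SE, edgeR adjusted p = 0.157) between FoEV and Co. LOC112442111 had 353, 147, 129, 203 and 201 CPM in Co, 148, 279, 284, 201 and 260 CPM in FeEV and 423, 271, 455, 817 and 584 CPM in FoEV, a log2 difference of 1.30 ± 0.38 (SE, edgeR adjusted p = 0.188). In both genes FoEV replicate 4 was the highest library and Co replicate 3 the lowest. The ratio of LOC112442111 to LOC112442110 stayed between 1.32 and 1.62 in all 15 libraries. The ratio of the 2 most counted U1 genes, LOC112446131 to LOC112443339, ranged from 0.552 to 1.85, with the highest value in FoEV replicate 4 and the lowest in Co replicate 2.

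**Figure D3:**
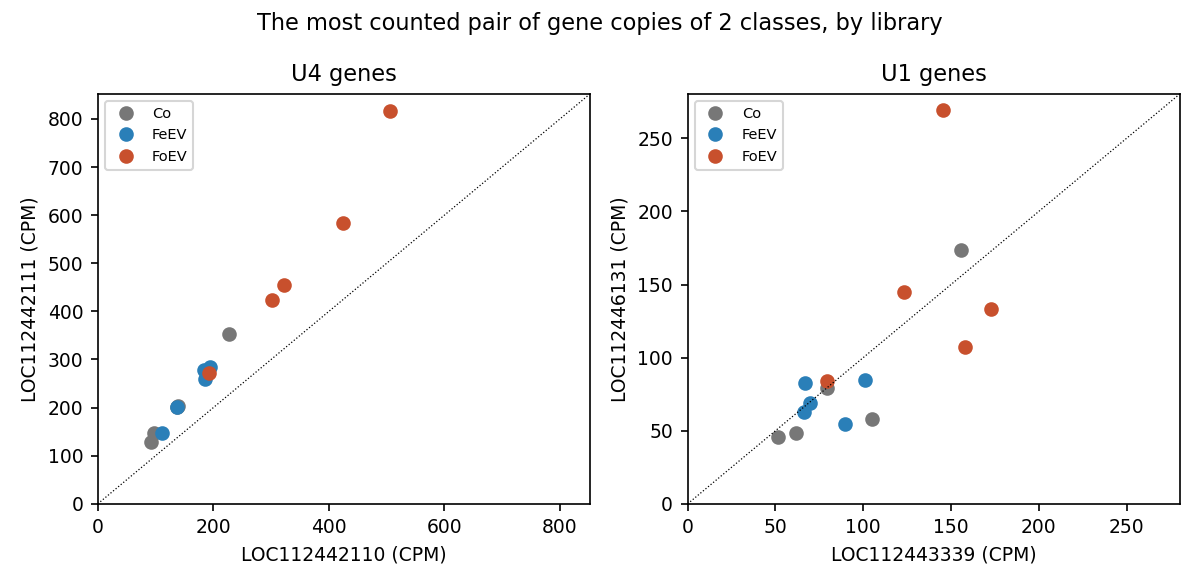
CPM of LOC112442111 against LOC112442110 (U4, left) and of LOC112446131 against LOC112443339 (U1, right), with 1 point per library and a dotted line where both are equal. The U4 points follow a line with a ratio of 1.32 to 1.62, and the U1 points scatter on both sides of the dotted line with ratios of 0.552 to 1.85.

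Among the U1 genes, the least counted one had the clearest difference. LOC112447196 had 13.8, 2.92, 4.03, 5.06 and 5.04 CPM in Co, 6.51, 5.58, 4.57, 4.21 and 5.51 CPM in FeEV and 18.5, 8.46, 9.99, 22.7 and 13.6 CPM in FoEV. All FoEV libraries lay above all FeEV libraries, and Co replicate 1 alone among the Co libraries reached the FoEV range. The log2 difference was 1.21 ± 0.36 (SE, edgeR adjusted p = 0.175) between FoEV and Co, and 1.48 ± 0.37 (SE, edgeR adjusted p = 0.466) between FoEV and FeEV. The most counted U1 gene, LOC112443339, had 155, 105, 51.4, 61.8 and 79.2 CPM in Co and 123, 79.3, 158, 146 and 173 CPM in FoEV, and its difference of 0.57 ± 0.31 (SE, edgeR adjusted p = 0.456) was smaller on the log2 scale. Whether the 2 genes differed in their response was not tested.

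The U2 genes differed in level but were all higher in FoEV than in Co. LOC112442853, the most counted, had 78.6, 70.8, 59.8, 59.1 and 47.9 CPM in Co, 73.6, 105, 50.2, 29.5 and 134 CPM in FeEV and 94.6, 91.0, 79.9, 74.9 and 139 CPM in FoEV. The groups overlapped, and the log2 difference between FoEV and Co was 0.58 ± 0.35 (SE, edgeR adjusted p = 0.493). LOC112442854 had 30.3, 11.3, 14.4, 14.4 and 19.4 CPM in Co, 14.0, 19.2, 11.7, 7.02 and 16.8 CPM in FeEV and 25.6, 23.0, 40.0, 46.6 and 51.6 CPM in FoEV. Its difference was 1.03 ± 0.35 (SE, edgeR adjusted p = 0.231) against Co and 1.44 ± 0.35 (SE, edgeR adjusted p = 0.466) against FeEV, with every FoEV library above every FeEV library. The ratio of LOC112442853 to LOC112442854 was 1.61 to 3.95 in FoEV and 4.20 to 7.97 in FeEV, without overlap, and 2.46 to 6.26 in Co. LOC112442845 had a smaller spread, with 16.5, 18.6, 12.8, 20.6 and 10.8 CPM in Co and 23.4, 18.0, 28.3, 20.3 and 26.7 CPM in FoEV, a log2 difference of 0.55 ± 0.19 (SE, edgeR adjusted p = 0.215).

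There were 8 genes among the 40 that were 116 to 118 bases long, 1 of them the named U5 gene. All 8 had a fitted level above Co and above FeEV in FoEV. Their median log2 difference was 0.65 between FoEV and Co and 0.83 between FoEV and FeEV, and 7 of the 8 were lower in FeEV than in Co. LOC112448638, of 118 bases, had 5.52, 3.65, 2.69, 3.89 and 3.96 CPM in Co, 1.95, 3.49, 2.94, 2.34 and 1.31 CPM in FeEV and 5.67, 3.44, 4.05, 8.55 and 4.45 CPM in FoEV. FeEV lay mostly below the other treatments, by -0.77 ± 0.38 (SE, unadjusted p = 0.0531) against Co on the log2 scale, and FoEV was 1.15 ± 0.36 (SE, edgeR adjusted p = 0.466) above FeEV. LOC112441917, also of 118 bases, had 2.93, 3.14, 3.26, 2.34 and 1.84 CPM in FeEV and 6.90, 3.70, 5.40, 6.78 and 4.19 CPM in FoEV, without overlap. Including it, 3 of the 40 genes (7.5%) had every FoEV library above every FeEV library, against 0.63% of all genes, and no gene of the 40 had every FoEV library above every Co library, against 1.38%.

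The 10 genes of 107 bases behaved unevenly. Between FoEV and Co, 6 of them lay above 0 and 4 below, and their median log2 difference was 0.21. Among the 30 genes of other lengths 29 lay above 0 and 1 below, and the median was 0.77. Summed over all 410 genes of this length, the level was 35.2, 61.7, 42.7, 57.6 and 46.1 CPM in Co, 52.7, 44.6, 47.6, 28.1 and 34.9 CPM in FeEV and 51.0, 52.6, 68.8, 30.4 and 47.7 CPM in FoEV, a log2 difference of 0.03 ± 0.17 (SE) between FoEV and Co. The libraries highest for the other lengths were not the highest here: Co replicate 1 was the highest Co library for 21 of the 30 other genes and for 0 of the 10 genes of 107 bases, and FoEV replicate 4 was the highest FoEV library for 17 of the 30 and for 0 of the 10. No test of the difference between the lengths was run.

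Both genes that were lower in FoEV than in Co at an unadjusted p under 0.05 were 107 bases long. LOC112443698 had between 1.08 and 3.11 CPM in the 5 Co libraries, 1.63, 0, 1.30, 0.468 and 0 CPM in FeEV and 1.48, 0.529, 1.08, 0 and 0.786 CPM in FoEV. Most libraries with oEVs thus lay near or under the limit of 3 counts, and the log2 differences of -1.44 ± 0.62 (SE, edgeR adjusted p = 0.311) for FoEV and -1.67 ± 0.67 (SE) for FeEV rest on few reads. LOC112443706 had 2.41, 4.38, 2.69, 6.61 and 3.24 CPM in Co, 2.28, 1.74, 3.26, 0.468 and 1.58 CPM in FeEV and 3.20, 1.59, 3.51, 0.590 and 1.31 CPM in FoEV. Its log2 difference from Co was -0.92 ± 0.43 (SE, edgeR adjusted p = 0.356) in FoEV and -1.03 ± 0.45 (SE) in FeEV. Both comparisons share the Co libraries.

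In FeEV compared with Co, the 40 genes were split with all libraries, 18 above and 22 below the Co level. The median of their log2 differences was -0.08, while 50.7% of all genes lay above. The split depended on single libraries: 27 lay above without Co replicate 1 (median 0.27) and 15 without FeEV replicate 2 (median -0.20). With edgeR's quasi-likelihood test and all libraries, 0 of the 40 passed the adjusted threshold (0% of all genes did). At an unadjusted p under 0.05, 0 were higher (1.67% of all genes) and 2 were lower (2.38%), namely LOC112443698 and LOC112443706. DESeq2 and the likelihood ratio test also called 0 of the 40 (0.00716% and 0.1% of all genes). The number at an unadjusted p under 0.05 was 1 without Co replicate 2, Co replicate 4 or FeEV replicate 4, 4 without FeEV replicate 2 and 0 without FeEV replicate 5. The shares over all genes in these refits are not given here, so these counts stand without a background. The next lowest p-values belonged to LOC112448638, to LOC112448347 with -0.93 ± 0.49 (SE) and to LOC112442843 with 0.96 ± 0.65 (SE) on the log2 scale.

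Between the oEV treatments, 37 of the 40 genes lay higher in FoEV than in FeEV. The 3 that lay lower were all 107 bases long. The median log2 difference was 0.64 beside 0.01 over all genes, of which 51.4% were higher. None passed the adjusted threshold with edgeR's quasi-likelihood test (0% of all genes did), where the lowest adjusted p was 0.466, while DESeq2 called 1 of the 40 (0.0143% of all genes), LOC112442854, and the likelihood ratio test 6 (0.279%). At an unadjusted p under 0.05, 11 of the 40 (27.5%) were higher, against 4.53% of all genes, and 0 were lower, against 3.9%, so that 11 of the 40 passed in either direction against 8.43%. FoEV libraries enter both this comparison and the one with Co.

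The make-up of the snRNA counts also differed between treatments. U4 took 45.0%, 35.7%, 41.8%, 46.7% and 43.8% of the snRNA counts in Co, 38.9%, 44.8%, 54.9%, 50.6% and 47.9% in FeEV and 51.9%, 48.0%, 53.4%, 59.7% and 55.7% in FoEV. Every FoEV library lay above every Co library, and FeEV overlapped both. U1 took 21.4% ± 4.25 (SD, n = 5) in Co, 19.0% ± 3.76 (SD, n = 5) in FeEV and 18.9% ± 1.24 (SD, n = 5) in FoEV, which differ by less than the spread between libraries. Without the U4 genes, the snRNA share of all counts was 0.0456% ± 0.0151 (SD, n = 5) in Co, 0.0437% ± 0.00928 (SD, n = 5) in FeEV and 0.0710% ± 0.0148 (SD, n = 5) in FoEV.

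**Figure D4:**
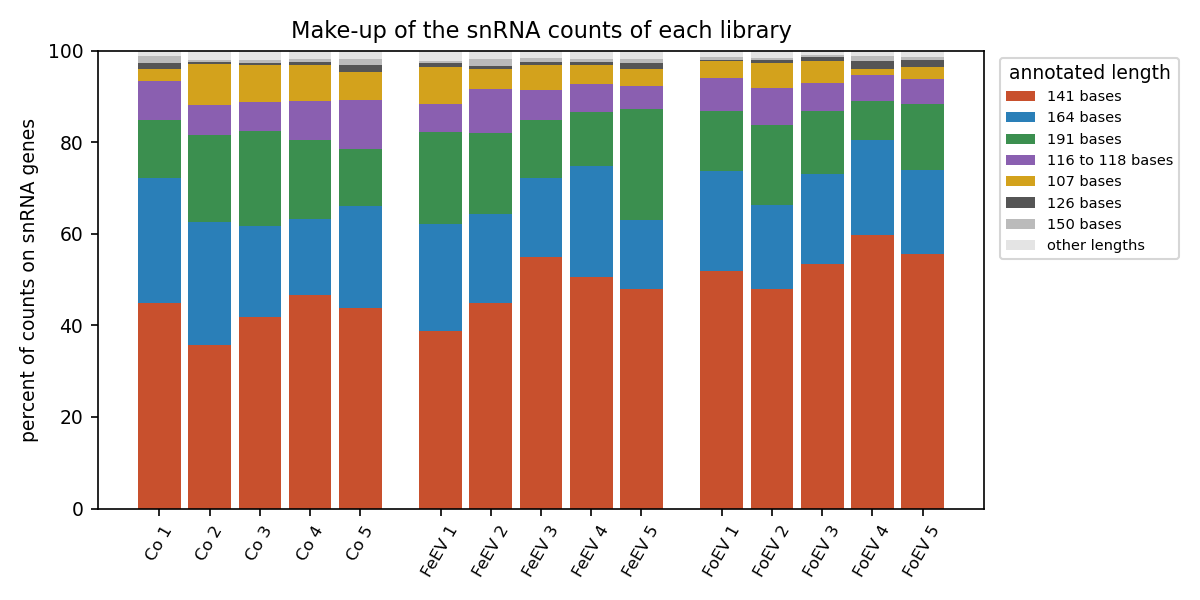
Percent of the snRNA counts of each library (y axis) that fell on genes of each annotated length (colours), for the 5 libraries of Co, FeEV and FoEV (x axis). The 141-base genes, which are the 2 U4 genes, took 48.0% to 59.7% in FoEV and 35.7% to 46.7% in Co.

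Some snRNA genes lie within or over other genes: 12 of the 40 overlap a protein-coding gene in the RefSeq table of assembly ARS-UCD2.0, and the strand setting of the counting is not given in the sources used here. LOC112443671, of 126 bases, lies within CLASP1, which encodes a microtubule-binding protein, and in human the gene of the minor spliceosomal RNA U4atac also lies within CLASP1. LOC112443671 had 14.5, 0.730, 0.336, 4.67 and 10.8 CPM in Co, 3.91, 6.62, 5.55, 3.28 and 9.45 CPM in FeEV and 3.20, 5.02, 11.9, 36.8 and 23.0 CPM in FoEV. Libraries of 1 treatment thus differed widely, and its log2 difference of 1.35 ± 0.84 (SE, edgeR adjusted p = 0.514) between FoEV and Co compares with -0.12 ± 0.09 (SE) for CLASP1. For LOC112442111 (U4) and its overlapping gene SIRT4, a mitochondrial sirtuin, the differences were 1.30 and 0.20 ± 0.43 (SE).

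Of the 107-base genes, 5 overlap a protein-coding gene, and 4 of these hosts had enough counts to be tested. LOC112448347 differed by -0.41 ± 0.46 (SE) between FoEV and Co and by -0.93 ± 0.49 (SE) between FeEV and Co on the log2 scale, and its host SCHIP1 by -0.61 ± 0.19 (SE) and -0.80 ± 0.20 (SE). LOC112443694 differed by -0.16 between FoEV and Co and by 0.15 between FeEV and Co, and its host SSB, which encodes the La protein that binds ends of RNA polymerase III transcripts, by -0.14 ± 0.09 (SE) and -0.04 ± 0.09 (SE). LOC112442875 differed by 0.32 and 0.55 in these comparisons, and its host NHERF1 by 0.31 ± 0.18 (SE) and 0.08 ± 0.18 (SE). Gene and host had opposite signs between FeEV and Co for LOC112443694 and also for LOC112446896, which differed by 0.14 between FoEV and Co and by -0.18 between FeEV and Co, beside 0.27 ± 0.18 (SE) and 0.26 ± 0.18 (SE) for its host ZC3H7B. The host of LOC112443706, SCN3A, had 7 counts and was not tested. How many reads of these snRNA genes came from the host transcript was not tested.

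Other short structured RNAs also had higher mean shares of the counts in FoEV. Small nucleolar RNA (snoRNA) genes, whose RNAs guide modification of ribosomal RNA, took 0.134% ± 0.0439 (SD, n = 5) of the counts in Co, 0.136% ± 0.0422 (SD, n = 5) in FeEV and 0.255% ± 0.102 (SD, n = 5) in FoEV. The ratio of snRNA to snoRNA counts was 0.608 ± 0.118 (SD, n = 5) in Co, 0.630 ± 0.0852 (SD, n = 5) in FeEV and 0.643 ± 0.140 (SD, n = 5) in FoEV, which differ by less than the spread between libraries. RMRP, the RNA of a ribonuclease that processes ribosomal RNA, took 0.0177% to 0.0282% in Co, 0.0240% to 0.0314% in FeEV and 0.0327% to 0.0768% in FoEV, so that every FoEV library lay above the rest. RN7SL1, the RNA of the signal recognition particle, took 0.202% ± 0.0628 (SD, n = 5), 0.265% ± 0.0561 (SD, n = 5) and 0.409% ± 0.236 (SD, n = 5) in the same order. Its FoEV mean leans on FoEV replicate 1 with 0.817%, and the FoEV and FeEV ranges overlapped. FoEV replicate 4 and Co replicate 1, the highest of their treatments for the snRNA share, were the lowest for RN7SL1, with 0.213% and 0.115%. The share on ribosomal RNA genes was 21.8% ± 4.87 (SD, n = 5) in Co, 20.7% ± 3.84 (SD, n = 5) in FeEV and 21.3% ± 4.60 (SD, n = 5) in FoEV. The part of library depth and of short RNA recovery in the snRNA differences was not tested.

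**Figure D5:**
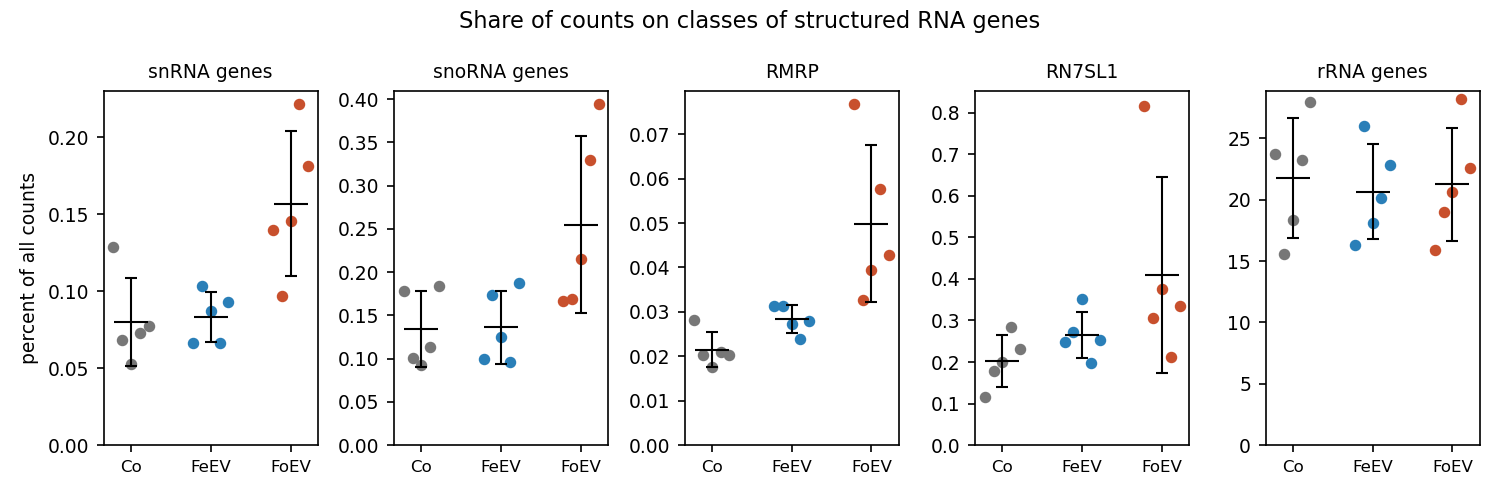
Percent of all counts (y axis, linear, from 0) on snRNA genes, snoRNA genes, RMRP, RN7SL1 and ribosomal RNA genes in the 5 libraries of Co, FeEV and FoEV; points are libraries and black bars the mean and SD. The mean snRNA share was 0.157% in FoEV and 0.0801% in Co, and the mean ribosomal RNA share 21.3% and 21.8%.

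Of 102 genes that make and carry snRNAs, 99 were tested and 0 passed the adjusted threshold with edgeR's quasi-likelihood test in any comparison. At an unadjusted p under 0.05, 9 of the 99 lay higher in FoEV than in Co, against 6.77% of all genes, and 7 lower, against 6.64%, and the median log2 difference was 0.03 beside 0.02 over all genes. The Sm and LSm proteins form rings around snRNAs, and 15 of these 17 genes had a higher level in FoEV than in Co, beside 52.2% of all genes. Of the 17, 5 were higher at an unadjusted p under 0.05, against 6.77% of all genes, and their median was 0.18. Among 15 Integrator genes, whose complex cuts the 3′ end of nascent snRNAs, 0 were higher at an unadjusted p under 0.05 and 4 were lower, against 6.77% and 6.64% of all genes. Of all lists, these 2 had the most genes at that threshold in 1 direction. Elsewhere, 2 of 5 SNAPc genes, 0 of 6 of the little elongation complex and coilin and 7 of 12 of end processing were higher. So were 5 of 12 of the SMN complex and methylosome and 23 of 32 for proteins of single snRNA particles.

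The lowest p-values in these lists belonged to genes of assembly, cleavage and cap binding. GEMIN8, a part of the SMN complex that loads Sm rings, had 24.1, 20.4, 27.2, 19.4 and 19.8 CPM in Co and 44.1, 37.0, 24.6, 31.8 and 24.4 CPM in FoEV, a log2 difference of 0.51 ± 0.15 (SE, edgeR adjusted p = 0.158). INTS4, of the cleavage module of Integrator, had 34.1, 41.3, 41.0, 35.8 and 32.7 CPM in Co and 31.8, 33.6, 25.1, 22.4 and 33.5 CPM in FoEV, a difference of -0.36 ± 0.12 (SE, edgeR adjusted p = 0.184). NCBP1, the large subunit of the nuclear cap-binding complex, differed by -0.28 ± 0.10 (SE, edgeR adjusted p = 0.215). Between FoEV and FeEV the lowest were INTS4 with -0.38 ± 0.12 (SE), NCBP1 with -0.28 ± 0.10 (SE) and SNRPD2, an Sm protein, with 0.47 ± 0.17 (SE). Between FeEV and Co they were INTS10 with 0.33 ± 0.13 (SE), LSM7 with 0.30 ± 0.13 (SE) and ZMAT5, a protein of the minor spliceosome, with 1.42 ± 0.691 CPM (SD, n = 5) in FeEV against 2.86 ± 1.51 CPM (SD, n = 5) in Co.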

How the data were processed

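The authors sequenced total RNA of pooled bovine embryos and deposited raw counts per gene, as an unfiltered and a filtered table. Per the paper's methods, single reads were mapped to ARS-UCD1.2 and counted with QuasR; the submitters' processing notes name Trim Galore 0.4.3.1, HISAT2 2.1.0 and featureCounts 1.6.3. How reads matching several gene copies were counted is not given in the sources used here. The labels give culture to day 7, the paper's text a longer culture.

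Gene types and lengths came from a RefSeq table of ARS-UCD2.0, in which 31262 of 34773 gene identifiers matched, and class names from the study's supplement. The genes and lists were chosen with earlier results of these data known. Genes with at least 50 counts over 15 libraries (13963) were scaled by TMM and tested with edgeR 4.0.16 in R 4.3.3 (glmQLFit with robust=TRUE, glmQLFTest), 15 libraries in 1 fit, and p-values adjusted by Benjamini-Hochberg over all genes. For classes, counts of named genes were summed into 1 row each. SE is the log2 fold change divided by the square root of F. CPM uses the total of the unfiltered table. Alternatives were DESeq2 1.42.0, the robust dispersion with likelihood ratio test, other scalings and filters, replicate blocks, and leaving out each library. Of these, the robust dispersion with likelihood ratio test is the kind that the study itself used. The scripts were tested on simulated data. Genes named are the most counted of each class, the 5 with the lowest p in each comparison, those at the count minimum, and 3 pathway genes per comparison; LOC112441917, LOC112446131, LOC112443671 and the genes with hosts were named after their values were seen.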

Additional observations from a re-analysis of the deposited data

Results flagged for a closer look

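Among 69 groups of 5 libraries, 4 held a library that stood far from the other 4 by Dixon's criterion, where chance alone flags about 1 group in 20. The U1 genes summed to 343 CPM in Co replicate 1, while the other Co libraries had 101 to 166 CPM. LOC112447196, a U1 gene, had 13.8 CPM in Co replicate 1 and 2.92 to 5.06 CPM in the other Co libraries. The U2 genes summed to 237 CPM in FoEV replicate 5, while the other FoEV libraries had 148 to 166 CPM. LOC112442843, of 191 bases, had 2.61 CPM in FeEV replicate 3 and 0.468 to 1.05 CPM in the other FeEV libraries.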

How the results depend on the processing

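The number of genes higher in FoEV than in Co, 35 of 40, was also 35 under each other scaling, with DESeq2 and with the likelihood ratio test, and 36 and 33 with the blocks named next. In FeEV against Co it was 18, and 23, 20 and 25 with the likelihood ratio test and these blocks. The number of the 40 genes past the adjusted threshold, 0 in FoEV against Co, was 1 without a count filter, 3 with DESeq2, 7 with the likelihood ratio test, 1 with the replicate number as a block (LOC112447196, adjusted p = 0.0498) and 2 with a block by the number in the sample description. In FoEV against FeEV it was 1, 1 and 6 in the first 3 of these. At an unadjusted p under 0.05 it was 5, 0 and 7 in FoEV against Co, FeEV against Co and FoEV against FeEV in the authors' filtered table, which holds 17 of the genes, 17 in FoEV against Co with the likelihood ratio test, and 7 in FoEV against FeEV with the replicate block. Leaving out 1 library at a time gave 6 to 15, 0 to 4 and 8 to 14. At the adjusted threshold, the shares over all genes with DESeq2, the likelihood ratio test and the blocks are given above. For the other counts of this paragraph that come from a refit they are not given here, so those counts stand without a background.

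Of the class rows in FoEV against Co, DESeq2 called 1 (U4 1.30), the likelihood ratio test 3 (U4 1.37, U1 0.93, U2 0.65) and the block by description number 1 (U1 1.07). In FoEV against FeEV the likelihood ratio test called 3 (U5 1.32, U4 1.05, U1 0.92). In FeEV against Co, directions turned for U1 (0.0082 with the likelihood ratio test, 0.29 with the description block), U5 (0.18 with that block) and, over the libraries left out, U1 (-0.42 to 0.16), U2 (-0.031 to 0.38) and U5 (-0.73 to 0.040).

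Among all 40 genes, the direction turned under at least 1 alternative for 8 in FoEV against Co, 22 in FeEV against Co and 13 in FoEV against FeEV. The 8 were not among the 15 genes named by rule. Of those 15, the genes that turned in FeEV against Co were, with the description block, LOC112442853 (-0.060), LOC112443339 (0.10), LOC112446152 (0.18) and LOC112447196 (0.39), and with the likelihood ratio test LOC112447196 (0.10). Over the libraries left out they were LOC112442111 (-0.010 to 0.44), LOC112442853 (-0.0026 to 0.52), LOC112443339 (-0.41 to 0.067), LOC112446152 (-0.73 to 0.040), LOC112447196 (-0.47 to 0.30) and LOC112449419 (-0.68 to 0.089). In FoEV against FeEV they were LOC112442843 (-0.0067 with the description block), LOC112443698 (-0.11 to 0.82) and LOC112443706 (-0.18 to 0.36). No other library shares the description number of Co replicate 1. Fits with that block thus take no treatment difference from Co replicate 1, as in the refit without it. The cause of these changes was not tested.

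Neither numbering clearly paired the libraries, but so few same-numbered pairs cannot show that a pairing is absent. For the replicate numbers, shared by 5 pairs of libraries each, the correlation of same-numbered libraries' deviations averaged 0.15, 0.04 and 0.19 for the 3 pairs of treatments. Libraries of other numbers averaged -0.04, -0.01 and -0.05, and the lowest same-numbered values were -0.25, -0.32 and 0. The numbers in the sample descriptions were shared by 3, 3 and 4 pairs of libraries. There the averages were 0.11, 0.07 and 0.07, beside -0.02, -0.01 and -0.01 for other numbers, with lowest same-numbered values of 0.08, -0.13 and -0.21. Genes near 50 counts lay close to the limit of 3 counts per library, so that their differences rest on few reads. Even so, LOC112446132 (51 counts) and LOC112443698 (55 counts) had an unadjusted p under 0.05 in FoEV against Co with edgeR's quasi-likelihood test.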
